A study of Drosophila melanogaster with 2 samples.

Results

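Of the 7689 Meics-GFP peaks of Drosophila melanogaster embryos on the dm6 build that passed the authors' threshold on the irreproducible discovery rate (IDR, which scores whether a peak ranks alike in both replicates), 602 (7.83%, Wilson 95% interval 7.25 to 8.45) had their summit in the intergenic sequence close to genes. A peak was counted here when its summit lay outside every annotated gene body, 501 to 5000 bp from the closest start of transcription (transcription start site, TSS) of any protein-coding gene, and over 500 bp from every TSS of a non-coding gene. The choice used position alone and no signal value. The assay was ChIP-seq (chromatin immunoprecipitation, then sequencing) on whole embryos aged 0 to 24 hours, male and female pooled. All of them were of the strain Meics-GFP, a stable transgenic line expressing Meics fused at its C-terminus to GFP. Chromatin was pulled down with an anti-GFP antibody after sonication to a size range of 200 to 800 bp. There were 1 group and 2 biological replicates, numbered 1 and 3, and no control library was analysed here, so the intergenic peaks near genes are set beside the other peaks of the same list and beside sequence without peaks. The read depth is unknown. Whole embryos of this age range mix many cell types and stages, and a peak can come from any of them.

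Meics is a protein with zinc fingers, a fold that often contacts DNA, and its name, Meiotic central spindle, refers to the microtubule structure between separating chromosomes in spermatocytes. In the compact fly genome the sequence between genes holds many of the enhancers that set where and when a gene is transcribed, as well as insulators, which separate the regulatory domains of neighbouring genes. CTCF is a zinc-finger insulator protein, and DREF, BEAF-32 and M1BP are factors known mainly from promoters. A summit between genes has no assigned target, so each peak is named below by the gene of its nearest coding TSS. For some peaks the genes on both sides of the gap, the stretch between 2 annotated genes, are given too. The gene named need not border the gap.

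The sequences show the DNA under some of the strongest of these peaks. Each is the summit base with 50 bp on each side, on the plus strand, read from the RefSeq copy of the Release 6 assembly with dm6 positions. In the first set, capitals mark the 8-base word GTGACGAA or GTAACGAA, or its reverse complement, called word A here. This word was picked out on these same peaks in earlier work on the data. The set is shown because 4 of the 25 strongest of these peaks and 28 of all 602 held word A within 50 bp of the summit; since the word came from these peaks, that count is a description and is given no test.
CG13280, chr2L:16801935-16802035: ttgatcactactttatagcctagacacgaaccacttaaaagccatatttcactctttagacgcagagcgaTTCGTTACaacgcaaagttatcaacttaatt
GluRIA, chr3L:6619207-6619307: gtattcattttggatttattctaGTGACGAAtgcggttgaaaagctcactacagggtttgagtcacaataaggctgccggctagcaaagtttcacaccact
CG15545, chr3R:30870627-30870727: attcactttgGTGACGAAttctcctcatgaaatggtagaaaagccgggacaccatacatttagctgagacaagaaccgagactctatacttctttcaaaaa
CG14297, chr3R:18895413-18895513: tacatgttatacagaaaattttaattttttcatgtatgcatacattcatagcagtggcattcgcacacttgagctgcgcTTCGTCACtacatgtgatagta
jigr1, chr3R:25652378-25652478: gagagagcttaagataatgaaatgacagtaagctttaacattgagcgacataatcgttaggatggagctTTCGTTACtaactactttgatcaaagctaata

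In the next set, capitals mark the core of the CTCF motif, AGNNGGCGC, on either strand. The set is shown because this motif was found at 19 of the 602 summits. The window near Sid holds the core in both orientations.
jp, chr2L:9567460-9567560: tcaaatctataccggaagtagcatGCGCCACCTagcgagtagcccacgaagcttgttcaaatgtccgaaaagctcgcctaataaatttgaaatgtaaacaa
Sid, chr3R:28672341-28672441: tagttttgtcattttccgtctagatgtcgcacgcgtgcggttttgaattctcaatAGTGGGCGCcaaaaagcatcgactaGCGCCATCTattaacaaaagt
sbr, chrX:10832528-10832628: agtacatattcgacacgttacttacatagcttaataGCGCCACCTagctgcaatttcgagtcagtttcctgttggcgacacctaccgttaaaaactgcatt

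In the last set, the windows hold none of word A, the CTCF core, TATAAA, TATCGATA and GGTCACACT. They belong to the strongest peaks without any of these motifs, and they show that a high signal also occurred without them.
stck, chr3R:8355613-8355713: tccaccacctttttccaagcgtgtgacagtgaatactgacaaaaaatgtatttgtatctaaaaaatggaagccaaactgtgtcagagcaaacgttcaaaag
DNAlig3, chr3R:12403076-12403176: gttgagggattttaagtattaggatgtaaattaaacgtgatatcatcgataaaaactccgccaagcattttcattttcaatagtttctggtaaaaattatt

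The strongest intergenic peaks near genes had high ranks in both replicates. They were taken by signal from a list that the authors thresholded on these same replicates, so the ranks are a description. The signal value is the authors' own measure of enrichment for each region, and rank 1 is the strongest of a list. The peak with the highest signal ran on 2L from 16801694 to 16802248. It had its summit in the 441 bp gap between Ugt37D1 and CG13280. The summit was 41 bp beyond the 3′ end of CG13280 and 2092 bp downstream of the TSS of that gene. The peak was longer than this gap, so it reached into a gene body. Its signal was 3527.41, which was 13.5 times the median of all peaks, and its regions in the replicates had signals of 1363 in replicate 1 and 2183 in replicate 3, ranks 38 and 28. Across all 25 strongest of these peaks, the weakest rank was 634 in replicate 1 and 495 in replicate 3, of the 30000 regions in each list. They were nearest to 22 genes. Of the 25, 20 were upstream of the TSS (80.0%, interval 60.9 to 91.1), beside 75.9% of all 602.

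After it came the peaks nearest to jp, stck and DNAlig3. The second strongest was 760 bp upstream of jp, a junctophilin that ties the endoplasmic reticulum to the cell membrane, with 1271 in replicate 1 and 1952 in replicate 3. The third was 1315 bp upstream of stck, a LIM-domain protein of integrin adhesions, with 1348 and 1844. A peak 1287 bp upstream of the TSS of DNAlig3, a DNA ligase of repair, had 1167 and 1844, but it lay in a gap of 437 bp between the 3′ ends of Sol1 and Cyp9f2, with at least 1 other gene between it and DNAlig3. These 4 peaks ranked 61 or better in both replicates.

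Some of the 25 strongest were nearest to, or shared a gap with, genes known from the nervous system, put together here after their names were seen. GluRIA, a subunit of ionotropic glutamate receptors, was 4775 bp from a summit with 1166 in replicate 1 and 1456 in replicate 3, which lay 144 bp beyond the 3′ end of its neighbour axed. The peak 530 bp upstream of Prosap, a scaffold of the postsynaptic density, had 757 and 1200. The gene Rh5, a blue-sensitive rhodopsin of the eye, had strong peaks on both sides, 1334 bp upstream with 733 and 946, and 2956 bp downstream with 498 and 706. The peak 598 bp upstream of cpo, an RNA-binding protein of the peripheral nervous system, had 577 and 688. A summit 1599 bp downstream of the TSS of CG8519 lay in the gap shared with ple, which encodes tyrosine hydroxylase of dopamine synthesis, and had 528 and 615.

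Other nearest genes among the strongest peaks encode regulators of transcription or of the cell cycle, likewise put together afterwards. foxo, the forkhead factor of insulin signalling, had 2 of these peaks, and the stronger lay 3342 bp upstream with 817 in replicate 1 and 1267 in replicate 3. The peak 815 bp upstream of ph-d, a Polycomb repressive complex subunit, lay between ph-d and its neighbour ph-p and had 784 and 1157. CycB, the mitotic cyclin B, had its peak 3332 bp downstream of the TSS and 550 bp beyond the 3′ end, with 625 and 1113. The peaks nearest to chinmo, a BTB zinc-finger protein of neuronal timing, bin, a forkhead factor of the visceral mesoderm, and Atf3, a bZIP factor, had signals of 1347.40, 1145.14 and 1255.62 in the thresholded list. tara, a nuclear protein with a role in the cell cycle, had 4 of these peaks within 3782 bp upstream, all 4 among the 26 strongest. In the tara group, 2 summits share an interval and a matched region in both replicates, and 3 summits share 1 matched region in replicate 3, with a signal of 1184, so these replicate values are not separate measurements. These 3 summits lay in a gap bordered by the non-coding genes lncRNA:CR45641 and lncRNA:CR45643, not by tara.

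**Figure D1:**
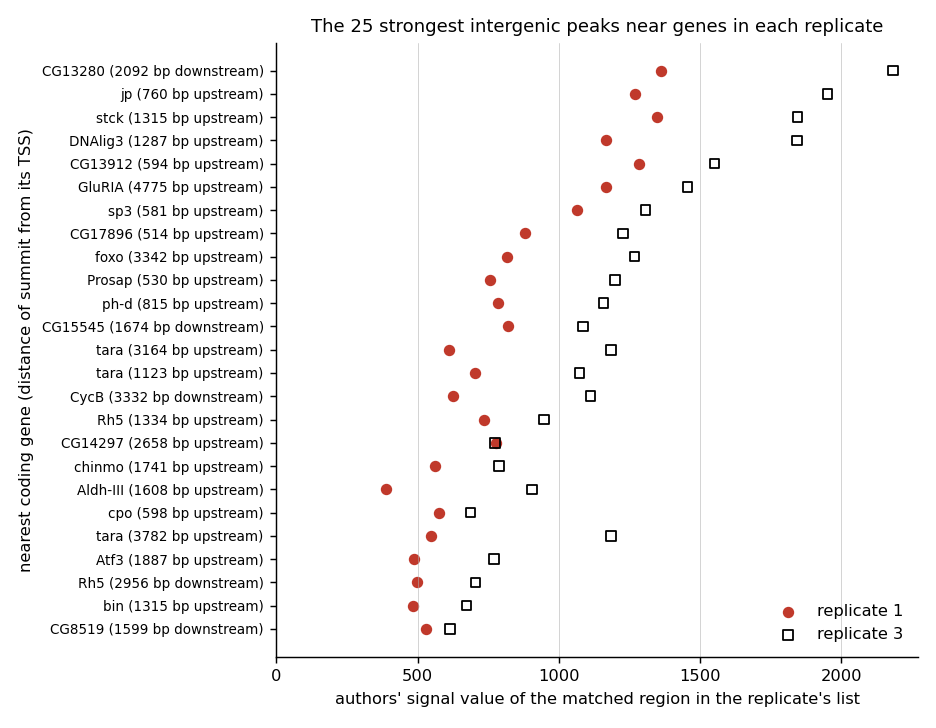
Signal value of the matched region in the lists of replicate 1 (filled circles) and replicate 3 (open squares) for the 25 intergenic peaks near genes with the highest signal in the thresholded list, named by the gene of the nearest coding TSS. Replicate 3 has the higher value in 24 of the 25, and the peak near CG14297 has 779 in replicate 1 and 774 in replicate 3; levels of different lists are not on a shared scale.

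Over all 602 peaks the replicates matched in about the same share as over the whole list. In both replicates, 500 of the 602 overlapped 1 of the 7689 strongest regions by at least 1 bp (83.1%, interval 79.9 to 85.8), beside 83.5% of all peaks. The thresholded list was made from these replicates, so this is a description. Replicate 1 alone matched 545, replicate 3 alone matched 552, and 5 matched in neither of these lengths of list. In the full lists of 30000, the peak 2398 bp downstream of the TSS of Sems was the single one without a region in replicate 3. Across the 601 matched in both, Spearman's rho between the signals was 0.85 and Pearson's r of their log10 was 0.91, beside 0.87 and 0.92 for all peaks. These correlations are across peaks, some of which share a replicate region (78 in replicate 1 and 75 in replicate 3).

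A few of the peaks had unlike ranks in the replicates. The peak 627 bp upstream of GstT4, a glutathione transferase, ranked 14802 in replicate 1 and 3392 in replicate 3. In the other direction, the peak 512 bp upstream of Cyp28d1, a cytochrome P450, ranked 4865 in replicate 1 and 12518 in replicate 3. The peak 866 bp upstream of Hex-A, a hexokinase, had a signal of 103 in replicate 1 and 1231 in replicate 3, where the region that overlaps the interval by at least 1 bp ranked 123.

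The intergenic peaks near genes had a lower median signal than promoter peaks and a higher one than peaks far from genes. Their median signal was 243 (quartiles 180 and 398), beside 301 for the 3307 promoter peaks (within 500 bp of a coding TSS), 248 for the 3277 in gene bodies, 220 for the 418 intergenic peaks over 5000 bp from a coding TSS and 262 for all peaks. Their median rank was 4238, beside 3845 over the list. Among the 769 strongest peaks of the list were 47 of them (7.81%, interval 5.92 to 10.2), beside 10.0% of all peaks and 14.7% of promoter peaks. Among the 769 weakest were 74 (12.3%, 9.91 to 15.2), beside 7.32% of promoter peaks. They made up 6.11% (4.63 to 8.03) of the 769 strongest and 9.62% (7.74 to 11.9) of the 769 weakest. The pooled list goes on below the thresholded part, and there they were 2447 of 22311 regions (11%, 10.6 to 11.4). The median width was 460 bp for these peaks and for all.

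**Figure D2:**
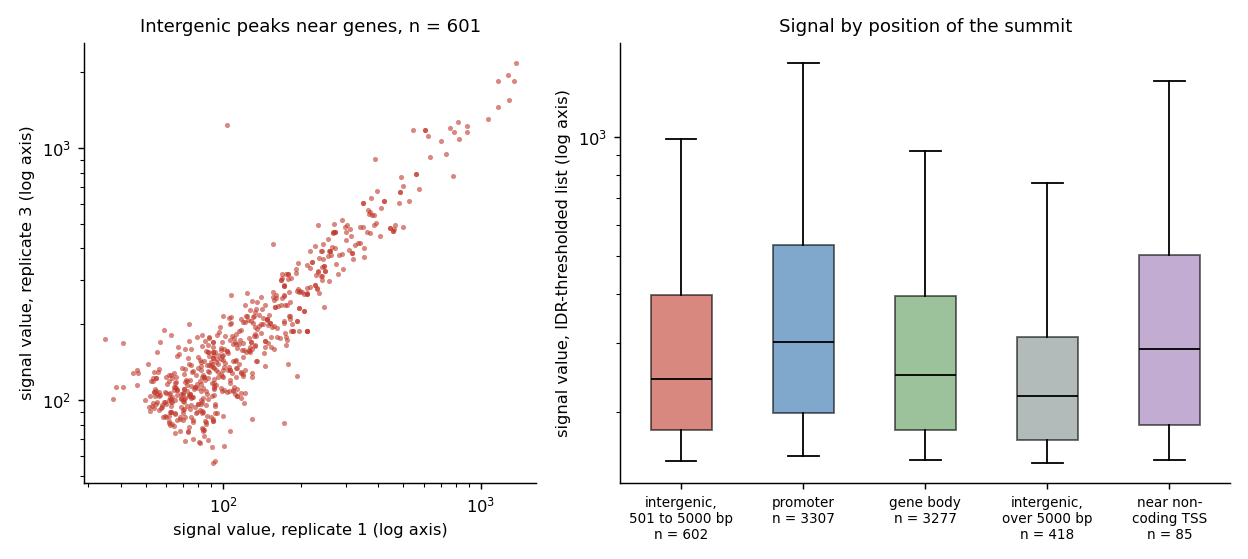
Left, signal value in replicate 3 against replicate 1 for the 601 intergenic peaks near genes matched in both lists, on log axes. Right, signal value in the thresholded list by position of the summit on a log axis, with the median as a line, quartiles as the box and whiskers at the 5th and 95th percentiles; the median is 243 for the intergenic peaks near genes and 301 for promoter peaks.

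Among the intergenic summits, those just upstream of promoters were the most dense. The sequence that meets the same rule as the peaks came to 12.6 Mb, called eligible sequence here, and the 602 summits gave 47.6 per Mb (exact Poisson 95% interval 43.9 to 51.6). Intergenic sequence over 5000 bp from a coding TSS held 17.5 per Mb (15.9 to 19.3), a density ratio of 2.71 (exact conditional interval 2.39 to 3.08). The windows within 500 bp of a coding TSS held 216 per Mb, and all 6 arms together 57.4. At 501 to 1000 bp the density was 79.4 (67.5 to 92.7), up to 2000 bp it was 51.2 (43.8 to 59.5), up to 3000 bp 36.7 (30.0 to 44.4), up to 4000 bp 35.1 (28.1 to 43.5), and in the last bin, over 4000 and up to 5000 bp, 40.6 (32.4 to 50.3). The nearest bin held 1.95 times the density of the farthest (1.49 to 2.58). The replicates taken singly, each by its 7689 strongest regions, gave 75.6 ± 1.77 per Mb at 501 to 1000 bp and 40.4 ± 0.342 in the last bin (SD, n = 2).

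The fall with distance was seen on the upstream side. Upstream of the nearest coding TSS the density was 86.1 per Mb (72.9 to 100.9) at 501 to 1000 bp, and in the following bins 53.8 (45.0 to 63.8), 41.8 (33.0 to 52.3), 33.2 (24.6 to 43.9) and 38.2 (28 to 50.8). Downstream the same 5 bins held 29.5 (11.9 to 60.8), 44.0 (31.1 to 60.4), 27.1 (17.9 to 39.5), 38.1 (26.7 to 52.8) and 44.2 (31.1 to 60.9), and the first of these rests on 7 summits. The ratio of upstream over downstream density was 2.92 (1.38 to 7.38) in the nearest bin and 0.86 (0.55 to 1.37) in the farthest. In the 3 bins between them it was 1.22 (0.847 to 1.80), 1.54 (0.982 to 2.48) and 0.871 (0.555 to 1.38). Only the interval of the nearest bin leaves out 1. Over the whole range 457 summits (75.9%) were upstream and 145 downstream, while 69.3% of the eligible sequence was upstream, a density ratio of 1.39 (1.15 to 1.69) and 1.40 ± 0.0723 in the replicates singly (SD, n = 2). These intervals, like the others, cover counting error only, and neighbouring peaks are not independent. The median signal did not fall steadily over the bins. It was 251, 253, 215, 226 and 254 from the nearest to the farthest, and it was 240 upstream and 253 downstream.

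**Figure D3:**
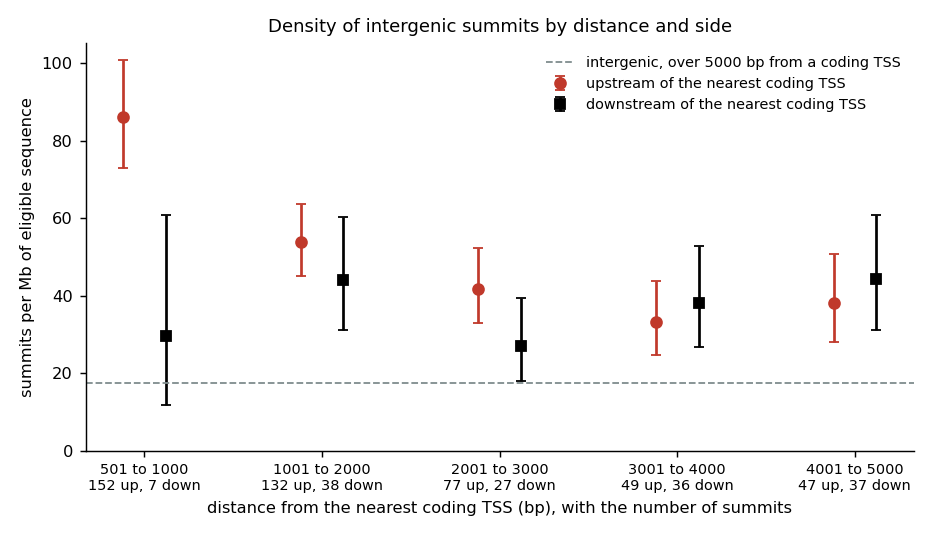
Summits per Mb of eligible sequence by distance from the nearest coding TSS, upstream (circles) and downstream (squares), with exact Poisson 95% intervals; the dashed line is intergenic sequence over 5000 bp away, 17.5 per Mb. The upstream value at 501 to 1000 bp, 86.1 per Mb, stands above all other bins, and over 1000 bp the intervals of both sides overlap in every bin.

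The orientation of the flanking genes gave densities whose intervals overlapped. Gaps whose genes point away from each other (divergent) held 188 of the summits at 54.1 per Mb (46.6 to 62.4), those with both genes on 1 strand (tandem) 300 at 44.9 (39.9 to 50.3), and those between 3′ ends (convergent) 114 at 46.4 (38.3 to 55.8). The ratio of divergent over tandem was 1.21 (0.999 to 1.45) and of divergent over convergent 1.17 (0.918 to 1.48), so both intervals hold 1. Beyond 1000 bp the densities were 44.2, 38.3 and 47.0 per Mb. The X chromosome held 0.94 times the density of the other arms (0.74 to 1.18), and the arms ran between 38.4 on 2R and 54.6 on 2L, with 4 summits on chromosome 4. The median distance from the nearest coding TSS was 1782 bp, while the nearest gene end of any kind was 1008 bp away in the median. That end was a 5′ end for 338 peaks and a 3′ end for 264. In 214 cases (35.5%) a non-coding gene bordered the gap. For these counts of gene ends and borders no background share was taken.

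The members at the edges of the distance window are given as a description. Just inside the near edge were the peaks 501 bp upstream of CG5770 and 503 bp upstream of ken, with signals of 147 and 163, and just outside it those 488 bp upstream of IA-2 and 491 bp upstream of CG43066, with 436 and 346. At the far edge the peaks near Lip4 at 4975 bp and tal-1A at 4966 bp had 481 and 159, and those outside, near CG12464 at 5017 bp and CG43691 at 5044 bp, had 189 and 145. The summit farthest from any gene was in the gap between Drl-2 and CG44341, 4958 bp from the closer gene, with a signal of 184.

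The peaks were spread over many gaps. The 602 summits lay in 486 gaps, of which 394 held 1 summit and 92 held 2 or more, and 3 gaps held 4. In the 4172 bp gap between CG7484 and Crtc, a coactivator of CREB, 4 summits spanned 3173 bp of 3L with signals between 252 and 768. Their replicate values were 301, 183, 118 and 86.1 in replicate 1, in order of strength, and 467, 188, 210 and 157 in replicate 3. Between dysf, a bHLH-PAS factor of tracheal development, and Cipc, 4 summits spanned 1543 bp of 3R, with signals between 195 and 567. The third such gap lay on 2L between the non-coding genes lncRNA:CR45292 and lncRNA:CR44184, with signals between 227 and 733. Of all 602, 51 lay within 230 bp of a stronger summit, beside 576 of all 7689 peaks. The whole interval was shared with another summit by 11 of the 602 (1.83%), beside 2.52% of all peaks. In 43 cases the interval reached into a gene body although the summit did not. Another 7 summits fell in annotated transposable elements, the strongest of them near eIF3f1 with a signal of 920.

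The nearest genes were counted one by one and by functional list. The 602 peaks had 500 nearest genes, out of 6233 coding genes with eligible sequence, which makes a background of 8.02%. Of these 500, 147 (29.4%, interval 25.6 to 33.5) also had a peak within 500 bp of one of their own TSSs, as did 1081 of the 5733 eligible genes with no such intergenic peak (18.9%, 17.9 to 19.9) and 19.7% of all eligible genes. The lists below were chosen with results of these data known, and their counts are given beside the background without a test.

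Among the lists of developmental regulators, the counts ran between 0 and 3 genes. Of 29 eligible segmentation genes 3 had one (10.3%, interval 3.58 to 26.4). The strongest was 4314 bp upstream of slp2, a pair-rule forkhead gene, with a signal of 239 in replicate 1 and 390 in replicate 3, and those near bcd, the maternal anterior determinant, and run, a Runt-domain pair-rule gene, had 86.2 and 105, and 76.4 and 70.3. The 8 eligible Hox genes had none, which leaves an upper limit of 32.4% by the Wilson interval. Among 20 genes of dorsoventral patterning and early zygotic expression, Doc2, a T-box factor, and dpp, a BMP ligand, had 89.7 and 137, and 87.9 and 129. In the Notch list 1 of 19 had a peak, E(spl)malpha-BFM, a Bearded-family inhibitor of the pathway, with 217 and 334. In the Polycomb and Trithorax list 2 of 12 had one, ph-d and jing, a zinc-finger protein, the second with 158 and 197.

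The lists for differentiated tissues, the ecdysone response and P450 enzymes held 3 to 5 such genes each. In the nervous system list 5 of 34 had a peak (14.7%, 6.45 to 30.1), led by Ddc, the dopa decarboxylase of dopamine and serotonin synthesis, with 145 in replicate 1 and 172 in replicate 3, ey, the Pax6 gene of eye development, with 129 and 160, and para, the voltage-gated sodium channel, with 51.0 and 139. The nervous system share was 8.82% without replicate 1 and 17.6% without replicate 3. In the muscle and mesoderm list 4 of 29 had one (13.8%, 5.50 to 30.6), led by Act57B, a muscle actin, with 193 and 270, lmd, a zinc-finger activator of myoblast fusion, with 130 and 203, and Act87E, another muscle actin, with 110 and 177. In the ecdysone list 3 of 18 had one, Hr38, an orphan nuclear receptor, shd, a P450 that makes the active hormone, and Kr-h1, a zinc-finger effector of juvenile hormone. Their signals in the thresholded list were 426, 354 and 173. Cytochrome P450 genes had 5 of 39, led by Cyp4s3, Cyp4d21 and Cyp28d1 with signals of 319, 302 and 222.

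Large gene families and lists of housekeeping functions held between 0 and 8 such genes. Chemoreceptors had 8 of 108 (7.41%, 3.80 to 13.9), led by Ir94a, an ionotropic receptor, with 269 in replicate 1 and 465 in replicate 3, and by the gustatory receptor genes Gr89a and Gr93d, with 324 and 413, and 148 and 211. Cuticle protein genes had 5 (4.95%, 2.13 to 11.1), led by Cpr76Ba with 461 and 479, Cpr65Eb and Cpr51A. Odorant binding proteins had 0 of 30 (upper limit 11.4%) and the trypsin family 1 of 24, Jon74E. Mitochondrial ribosomal proteins had 1 of 17, mRpL21. The replication and cell cycle list had 2 of 17, CycB and Cdk4. The heat shock list had 0 of 13, the central spindle and cytokinesis list 0 of 11, the insulator and promoter factor list 0 of 6, and the sex determination and dosage compensation list 1 of 10, run. With intervals this wide, none of the lists given here stood apart from the background of 8.02% by its interval in this count by nearest gene. No intervals were made for the count by both genes given below, so the statement does not cover it. Counts this small moved with 1 replicate left out: the Notch list had 10.5%, the central spindle list 9.09% and the odorant binding list 3.33% without replicate 3, and the sex determination list 0 without replicate 1. With both genes at the ends of the gap counted in place of the nearest, the share was 11% of all eligible genes, 33.3% in the ecdysone list, 26.5% in the nervous system list, 25% in the Polycomb and Trithorax list, 23.5% in the replication list, 20.7% in the segmentation list, 20% in the dorsoventral list, 16.7% in the insulator list, 9.09% in the central spindle list, 7.92% in the cuticle list, 7.69% in the P450 list and 0 in the sex determination list.

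The DNA at the summits was poor in G and C. GC content was 33.1% in the windows of 50 bp on each side of the 602 summits, beside 41.7% in the window 500 bp away on the side away from the TSS, 42.3% on the side towards it and 40.6% over windows that tile the eligible sequence. At the summits of promoter peaks it was 36.1%, of intergenic peaks over 5000 bp away 32.9%, and of all peaks 34.8%. The motif counts below were not corrected for this composition.

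Of 30 motifs, 4 were more frequent at the summits than in the flank on the side away from the TSS (13.3%), and 1 was less frequent (3.33%), by the exact McNemar test, two-sided, with Benjamini-Hochberg adjustment over the 30. Over all 7689 peaks, with far more windows, the same test called 13 more frequent and 8 less frequent. Word A is among the 4, but it was picked on these peaks, so its call is not read as a test. The nuclear receptor core AGGTCA, in 0.664% of summit windows and 2.66% of flanks, had an unadjusted exact p of 0.0118 and an adjusted one of 0.0591, and it passed in windows of 100 bp on each side (a difference of -3.65 percentage points, adjusted exact p = 0.00630) and in replicate 3 alone (-2.35, 0.0193). Word A was in 28 summit windows (4.65%, interval 3.24 to 6.64) and in 3 flank windows (0.498%, 0.170 to 1.45). It was in 2.03% (1.60 to 2.56) of promoter summits, 3.35% (2.01 to 5.54) of summits over 5000 bp away, 2.65% of all summits and 0.398% of tiles of the eligible sequence. TATAAA, the TATA box, was in 154 summit windows (25.6%, 22.3 to 29.2) and 61 flank windows (10.1%, adjusted exact p = 7.79e-11). It was in 24.2% (20.3 to 28.5) of summits over 5000 bp away and 22.6% of those in gene bodies. Among promoter summits the share was 20.7%, among all summits 22.1% and among tiles 13.1%. TATAAA holds only A and T, and the part of the low GC content at the summits in this excess was not tested. The TATA box missed the threshold in the upper part of the list by signal, where fewer peaks are tested (9.29 percentage points more, adjusted exact p = 0.0881).

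The CTCF core was in 19 summit windows (3.16%, 2.03 to 4.88) and 3 flank windows (0.498%; adjusted exact p = 0.00855), beside 1.51% (1.15 to 1.99) of promoter summits, 1.61% of all summits and 0.683% of tiles. It did not pass against the flank towards the TSS (1.99 percentage points more, adjusted exact p = 0.145), in replicate 3 alone (2.01, 0.0709) or in the stronger peaks alone (1.49, 0.604). TAATTA, a core bound by homeodomain proteins, was in 12.1% of summit windows and 7.31% of flanks (adjusted exact p = 0.0489), beside 9.81% of all summits and 8.15% of tiles, and it did not pass in replicate 3 alone (adjusted exact p = 0.0921), in the stronger peaks alone (0.536) or without summits near a stronger one (0.118). The repeat CACACACA was in 0.997% of summit windows and 3.49% of flanks (adjusted exact p = 0.0444), beside 1.46% of all summits and 2.32% of tiles, and it did not pass in the same settings (0.196, 0.574 and 0.0540). The adjustment over the 30 included word A, which was picked on these peaks. The calls of TAATTA and CACACACA, just under the threshold, depend on word A being among the 30, so they are not read as firm. At summits over 5000 bp away the CTCF core was in 1.67% (0.814 to 3.42), TAATTA in 6.94% and CACACACA in 0.478%. In gene bodies the 3 shares were 1.31%, 10.1% and 1.34%.

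The DRE and the M1BP motif, known from promoters, were at few of these summits, as at summits in gene bodies and over 5000 bp away. TATCGATA, known as the DNA replication-related element (DRE), to which DREF and BEAF-32 bind, was in 3 of the 602 summit windows (0.498%, interval 0.170 to 1.45), beside 3.02% (2.49 to 3.66) of promoter summits, 1.46% of all summits and 0.199% of tiles. GGTCACACT, the motif of M1BP, was in 3 (0.498%) as well, beside 1.36% (1.02 to 1.82), 0.689% and 0.0361%. ATCGATAG, another word picked on these peaks in earlier work and called word B, overlaps TATCGATA, and was in 3 (0.498%), beside 3.57% (2.99 to 4.26), 1.65% and 0.300%. At summits over 5000 bp away the DRE was in 0.239% (0.0422 to 1.34), the M1BP motif in 0% and word B in 0.239%. In gene bodies the 3 shares were 0.214% (0.104 to 0.440), 0.122% and 0.122%. Low shares were therefore not particular to the intergenic peaks near genes. For the DRE and M1BP motifs the test against the flanks did not pass (adjusted exact p = 0.500 for both), and 3 hits limit what it could show. The initiator was in 8.14% of summits and 7.31% of flanks (adjusted exact p = 0.862). GATA sites (AGATAA or TGATAA) were in 15.9% of summits and 12% of flanks (adjusted exact p = 0.235), and they passed in windows of 100 bp on each side (6.64 percentage points more, adjusted exact p = 0.0399). 2 further motifs passed as less frequent only in an alternative: E-box 2 (CACATG) in the wider windows and in replicate 3 alone (adjusted exact p = 0.0215 and 0.0107), and the GAGA motif against the flank towards the TSS (0.00192).

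**Figure D4:**
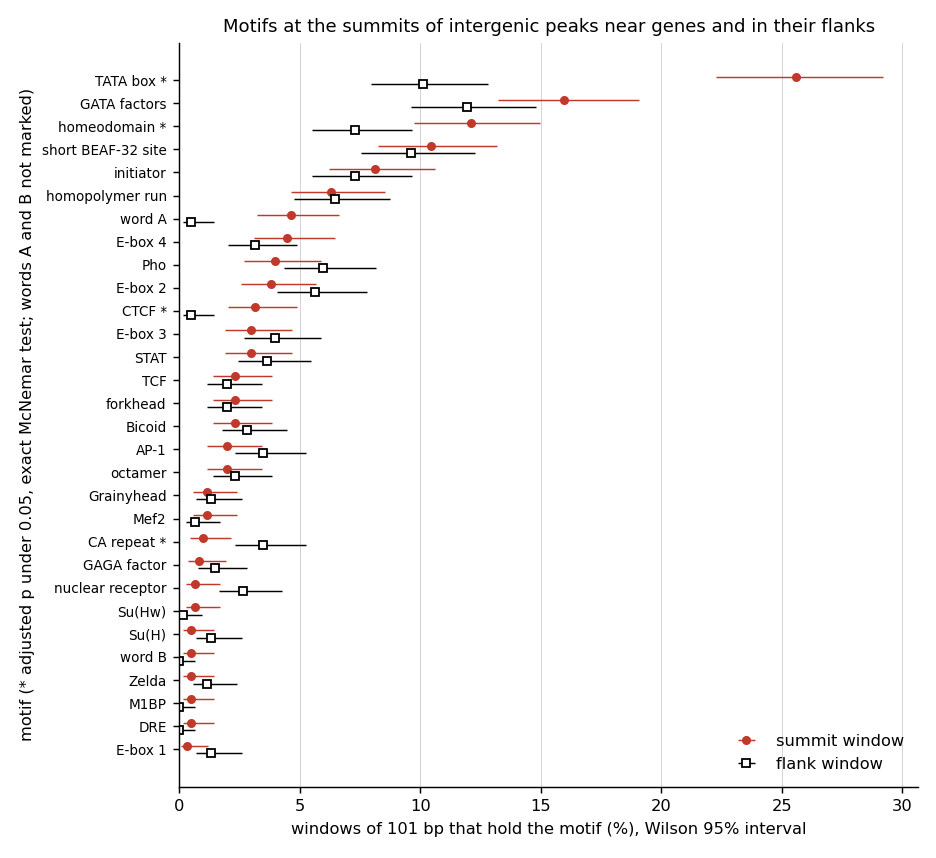
Share of windows, 50 bp on each side of their centre, that hold each of the 30 motifs at the summits (filled circles) and in the flanks 500 bp away (open squares) of the 602 intergenic peaks near genes, with Wilson 95% intervals; a star marks an adjusted p under 0.05, and words A and B, picked on these peaks, carry none. The TATA box has 25.6% at summits and 10.1% in flanks, and word A 4.65% and 0.498%.

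Word A stood close to the summits, and it was found in a larger share of the upper part by signal than of the lower part, though the intervals of both shares overlap. Since the word was picked on these same peaks, its place and its shares by signal are a description and are given no test. In the 50 bp bins on both sides of the summit it had 3.16 and 1.99 hits per 100 peaks, and in most bins farther out under 1. Counted within 100 bp of the summit, with the 602 peaks split by signal into 3 parts of nearly equal size, it was at 19 of the strongest part (9.45%, interval 6.13 to 14.3), 9 of the middle part (4.48%, 2.37 to 8.29) and 7 of the weakest part (3.50%, 1.71 to 7.05). Among promoter peaks the same split gave 4.90% (3.77 to 6.33), 2.36% and 1.81% (1.18 to 2.79). Among intergenic peaks over 5000 bp away it gave 3.57% (1.53 to 8.09), 5.76% (2.94 to 10.9) and 4.32% (1.99 to 9.10), with no such order. The median signal was 371 for the 28 peaks with the word within 50 bp and 240 for the 574 without it. Of the 28, 25 matched among the strongest regions of both replicates, beside 500 of all 602 (83.1%), and with so few peaks no difference is read from this. By position, the word was at 16 of 457 upstream summits (3.50%, 2.17 to 5.61) and 12 of 145 downstream ones (8.28%, 4.80 to 13.9), whose intervals overlap.

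The 28 peaks with word A were near genes of different kinds. After those near CG13280, GluRIA, CG15545 and CG14297, whose sequences are shown above, came jigr1 with a signal of 1029, Ugt303A1, a glycosyltransferase gene, with 832, and CG17154 with 792. Others were near swa, which anchors bicoid mRNA in the egg, with 466, ft, the large cadherin of planar polarity and growth control, with 245, and 5-HT7, a serotonin receptor, with 357. The gap beside Jon74E counted 2 times, with 2 summits that each hold the word in their own window and share a matched region in both replicates. These genes were named after their values were seen.

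The 19 peaks with the CTCF core had signals between 146 and 3223.4. Their median signal was 212, beside 244 for the other 583, and with so few peaks no difference is read from this. The peak near jp had the highest with 3223.4, followed by CG14762 with 850, Sid, a nuclease, with 625, sbr, a nuclear export factor for mRNA, with 418, and Sox21a, a Sox factor of intestinal stem cells, with 377. The core was at 16 of 457 upstream summits (3.50%, 2.17 to 5.61) and 3 of 145 downstream ones (2.07%, 0.706 to 5.91). None of the 19 windows held word A. With the core in 3.16% and word A in 4.65% of the 602 windows, few windows with both could occur. No relation between the 2 motifs is read from this.

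**Figure D5:**
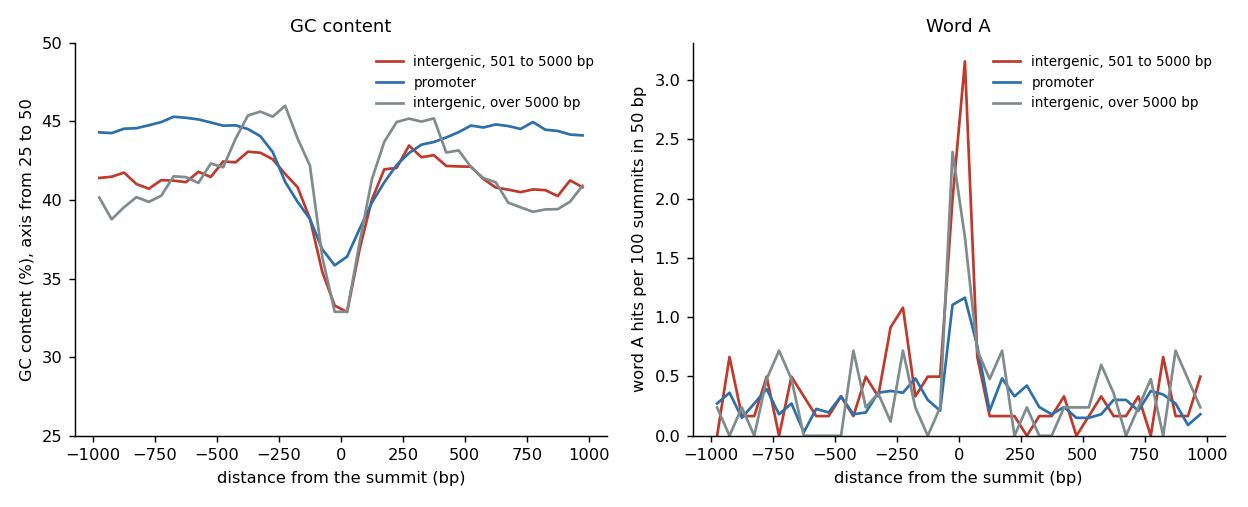
Left, GC content in 50 bp bins around the summits along the plus strand, for intergenic peaks near genes, promoter peaks and intergenic peaks over 5000 bp away; the axis starts at 25%. Right, word A hits per 100 summits in the same bins. The intergenic peaks near genes drop to 32.9% GC in the bin just after the summit, where word A reaches 3.16 hits per 100 summits.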

How the data were processed

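The deposited files are narrowPeak lists on dm6, 1 of 30000 regions per replicate, 1 pooled and 1 thresholded by irreproducible discovery rate (IDR). Per the file headers and README text, the authors made them from alignments and 1 further file; the aligner, caller and IDR threshold were not given in the sources used here. The unit is the authors' signal value per region, deposited without a stated scale and used only to rank and describe peaks within a list. The 7689 thresholded peaks were the strongest of the pooled list. Lists on dm3 were not used. Read depth is unknown.

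Summits (start plus offset) were placed on genes and transcript starts of Ensembl release 115 (BDGP 6.54, the same assembly), with 18164 genes on 6 arms, 13945 coding; the 5809 annotated transposable elements did not count as genes. Density was taken per Mb of sequence meeting the same rule. Each motif was scored on both strands as found or not found in the summit base with 50 bp on each side. It was compared by the exact McNemar test with a window centred 500 bp away, on the side away from the nearest coding TSS, and its share in 119264 tiles of eligible sequence is the background. All 602 summits had a flank window, also in gaps as short as 172 bp, and 105 summits lay within 500 bp of a gene end. Some flank windows therefore fall in genes, and how many was not counted.

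Besides those spelled out with the results, the motifs searched were CGATA (the short BEAF-32 site, within TATCGATA), GAGAGAG for the GAGA factor, CAGGTAG for Zelda, TGCATACTT for Su(Hw), GCCATNNT for Pho, TGANTCA for AP-1, TAATCC for Bicoid, TGTTTAC for forkhead factors, AACNGGTT for Grainyhead, GTGGGAA for Su(H), TTCNNNGAA for the STAT factor, ATCAAAG for TCF and ATTTGCAT for POU factors. The initiator was TCAGTT or TCAGTC, and the Mef2 site was CTAAAAATA or CTATTTATA. The E-boxes numbered 1 to 4 in the plot were CACGTG, then CACATG, then CAGCTG, then CATATG, and the homopolymer was AAAAAAAA.

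A replicate alone stands for its 7689 strongest regions. The members, motifs and gene lists were chosen with earlier results of these data known; 17 list symbols were not found and were left out. The result of 1 further gene list is not reported here. Genes named were those of the 25 strongest members, up to 3 per list, those at the window's edges and the fullest gaps, and those said to be chosen later. The code was tested on simulated data. Python 3.11.15 with scipy 1.17.1, numpy 2.4.6, pandas 2.3.3 and, for the plots, matplotlib 3.10.9, was used.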

Additional observations from a re-analysis of the deposited data

How the results depend on the processing

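The count of peaks was 602, and 595 with transposable elements counted as gene bodies, 443 over 1000 bp away, 329 at 501 to 2000 bp, 480 where the whole interval had to be clear, and 551 without summits within 230 bp of a stronger one. The share was 7.74% with 1 start per gene, 7.0% in the upper part of the list by signal and between 7.75% and 7.80% in the replicates singly. The median rank ran from 4094 to 4194.5 in the replicates singly. The density ratio of the nearest over the farthest bin was 2.02 with 1 start per gene, 1.89 without summits near a stronger one, and from 1.83 to 1.92 in the replicates singly. The share matched in both replicates was 64.8% at 50% reciprocal overlap and 99.8% over the full lists. Motifs more frequent at the summits numbered 1 (word A) in the upper part of the list, where fewer peaks are tested, and between 2 and 4 in the replicates singly. Word A was picked on these peaks, and no other motif passed as more frequent in the upper part. Motifs less frequent numbered 2 against the flank towards the TSS, 3 in windows of 100 bp on each side, 0 in the upper part of the list, 0 without summits near a stronger one, and between 1 and 2 in the replicates singly; where no value shows the cause, the cause was not tested. No motif that passed the test changed direction, but 18 differences of 13 motifs that did not pass changed sign, with adjusted exact p of 0.288 or more. In percentage points, summit minus flank, they were against the flank towards the TSS -1.33 for the short BEAF-32 site, -2.82 for the initiator, 0.33 for Zelda and Pho, 0.17 for AP-1 and Grainyhead, 0.83 for STAT and 1.33 for POU factors; in windows of 100 bp on each side 0.17 for GAGA and 0.50 for the homopolymer; and 0.37 for Zelda in the upper part of the list. With replicate 3 and replicate 1 left out in turn they were 0.17 and -0.67 for GAGA, -0.67 and 0.34 for Zelda, 0.17 and -0.34 for Su(H), -1.17 and 0.50 for the initiator, -0.17 and -0.50 for forkhead factors, and 0.00 and -0.50 for TCF. Counting transposable elements as gene bodies and thinning close summits for the motifs were chosen after seeing the data. No paired analysis was possible because there is 1 group.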
